A study of Drosophila melanogaster with 2 samples.

Results

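The chemosensory receptor genes of Drosophila melanogaster were examined for binding of the transcription factor Single-minded (Sim) in embryos. They were taken by name: every protein-coding gene of the annotation whose symbol is Or, Gr or Ir followed directly by a digit. This gave 179 of 13968 protein-coding genes on the chromosome arms, with 59 Or, 60 Gr and 60 Ir genes. Binding was mapped by chromatin immunoprecipitation and sequencing (ChIP-seq) in whole embryos of strain sim-GFP, collected between 0 and 24 h of age. These transgenic animals expressed Sim fused to enhanced green fluorescent protein (sim-eGFP). The labels describe precipitation with an antibody to GFP, while their antibody entry reads sim. Fragments were made by sonication, with a size range of 200 to 800 bp. There was 1 group of 2 biological replicates, and the control libraries were not analysed here. The age range spans all of embryogenesis and every tissue, so sites used in few cells are diluted among all others, and the lists cannot tell which cells a peak came from.

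Or genes encode odorant receptors, which form ion channels with the shared co-receptor Orco in olfactory neurons. Gr genes encode gustatory receptors for sugars, bitter compounds and carbon dioxide, and Ir genes encode ionotropic receptors related to glutamate receptors, which work with co-receptors such as Ir25a, Ir8a and Ir76b. Each olfactory neuron expresses few of these genes, chosen by combinations of transcription factors. Sim is best known as the regulator of midline cells of the embryonic nervous system, and in adult flies it has been counted among the factors needed for expression of subsets of Or genes. The question addressed here is how often Sim peaks in the embryo lie at these receptor genes.

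The principal list was the optimal list of both replicates, with 2682 peaks. Their lowest scaled score was 830, which stands for an irreproducible discovery rate (IDR) of 0.01. A gene was counted when the summit of a peak, its highest point, lay within the gene or a stated distance either side. The thresholded lists of replicate 1 and replicate 2 held 1071 and 1676 peaks, and their ranked lists held 96901 and 88657. Sequencing depth is unknown, because the lists give no read counts. Signal values are strengths assigned by the authors' peak caller, and are compared here only within a list.

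Few receptor genes carried a Sim peak. Within 5 kb of the gene, 21 of the 179 receptor genes (11.7%) had an optimal summit, against 30.0% of all protein-coding genes. Within 1 kb there were 8 (4.47%), against 16.5% of all genes. Inside the gene itself there were 2 (1.12%), Or43b and Gr93c, against 8.12% of all genes. This share depends on gene length, and it was 2.74% among genes in the middle range of receptor gene length. The transcription start site (TSS) nearest to a summit belonged to a receptor gene for 6 of the 179 (3.35%), against 13.1% of all genes. The list of replicate 1 alone gave 10 receptor genes within 5 kb (5.59%, against 15.0% of all genes). Within 1 kb the list of replicate 1 alone gave 3 receptor genes (1.68%), against 7.86% of all genes. That of replicate 2 alone gave 2 (1.12%), against 11.6%, and the conservative list gave 4 (2.23%), against 15.2%. Within 10 kb the optimal list gave 33 (18.4%), against 42.7% of all genes. No test was made of these differences, since neighbouring receptors share windows and the study has a single group.

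**Figure D1:**
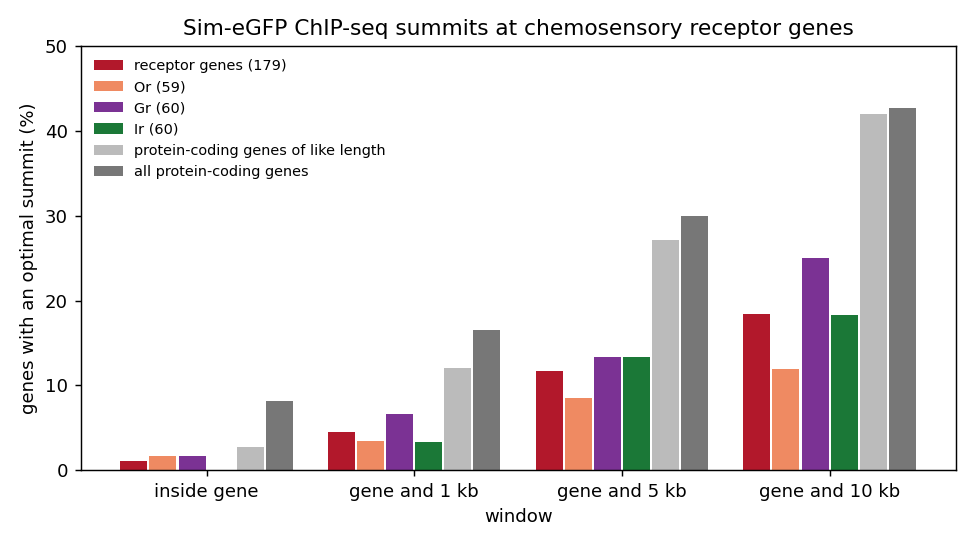
Percentage of genes with an optimal summit (y axis) inside the gene and within 1, 5 or 10 kb of it (x axis), for receptor genes, each receptor family, protein-coding genes in the middle range of receptor gene length, and all protein-coding genes. At 5 kb the bars stand at 11.7% for receptor genes, 27.1% for genes of like length and 30.0% for all genes.

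Receptor genes are short, and a short gene has a smaller window. Their median length was 1691 bp, compared with 2164.5 bp for all protein-coding genes. Among all genes between the lower and upper quartile of receptor gene length (1377.5 to 2204.5 bp), 27.1% had a summit within 5 kb and 12.1% within 1 kb. Among the 89 receptor genes in that range the shares were 12.4% and 4.49%. The receptor share stood below that of genes of like length in both windows. Inside the gene, 1 of the 89 receptor genes (1.12%) had a summit, against 2.74% of genes of like length and 8.12% of all genes. The gap inside the gene was thus much smaller at like length, and it rests on 1 receptor gene. Of the 5 receptor genes over 6 kb long, Gr28b, Gr39a, Ir40a, Ir41a and Ir93a, none had a summit within 5 kb. Ir41a spans 104437 bp, but its nearest summit was 1094.84 kb away, so the stretch around the gene held none either.

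All 3 families were low. Of the 59 Or genes 5 had a summit within 5 kb (8.47%), of the 60 Gr genes 8 (13.3%), and of the 60 Ir genes 8 (13.3%). Within 1 kb the counts were 2 Or, 4 Gr and 2 Ir genes. Measured as distance, the nearest optimal summit lay at a median of 30.4 kb from receptor genes, against 13.5 kb from all protein-coding genes. The medians by family were 43.6 kb for Or, 21.6 kb for Gr and 24.9 kb for Ir genes. The genes farthest from any summit were Ir41a (1094.84 kb), Or42a (323.8 kb) and Or42b (318.3 kb). At the edge of the 5 kb window, Ir76a was just inside at 4845 bp and Ir85a just outside at 5450 bp. At the edge of the 1 kb window, Gr63a was inside at 776 bp and Gr94a outside at 1198 bp.

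**Figure D2:**
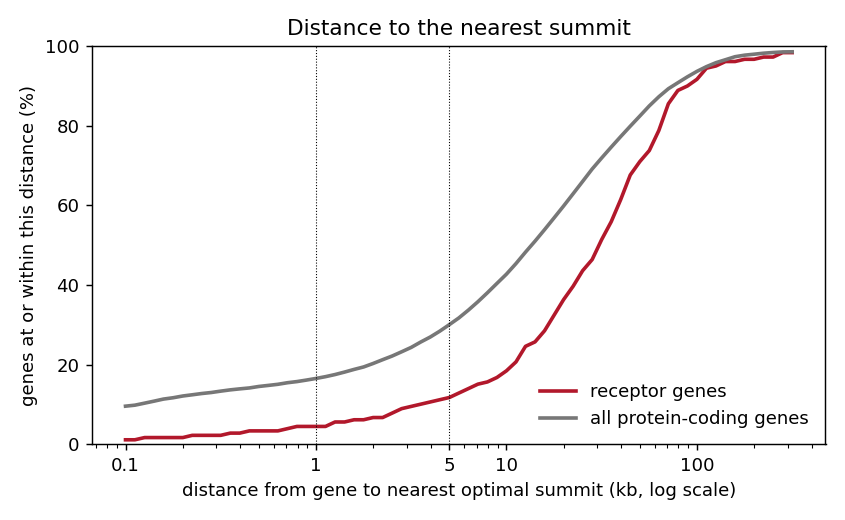
Cumulative percentage of genes (y axis) by distance to the nearest optimal summit in kb (x axis, log scale, genes holding a summit counted from the left edge), with dotted lines at 1 and 5 kb. The receptor gene curve lies below that of all protein-coding genes at both lines, and the medians are 30.4 kb and 13.5 kb.

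The same held in each peak list. The conservative list placed a summit within 5 kb of 20 receptor genes (11.2%), against 27.7% of all genes. The list of replicate 1 placed one near 10 receptor genes (5.59%), against 15.0% of all genes. The list of replicate 2 placed one near 18 (10.1%), against 21.9%. The count of receptor genes with a peak was therefore smaller in replicate 1, as was the count for all genes, and in each list the receptor share stood below the share of all genes.

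Lists of receptors by role each had between 1 and 3 genes with a summit. Of 27 Or genes listed as receptors of the larval nose, the olfactory organ formed in the embryo, 1 had a summit within 5 kb (3.70%). That gene was Or45b. Of 9 sugar receptor genes 1 did, the trehalose receptor gene Gr5a, and none of the 6 Gr64 genes did. Of 5 broadly used bitter receptor genes 1 did, Gr89a. The carbon dioxide receptor is formed by Gr63a and Gr21a, of which Gr63a had a summit within 5 kb and Gr21a had none nearer than 59 kb. Of 17 antennal ionotropic receptor genes 3 did (17.6%), Ir25a, Ir31a and Ir76a. Of the 3 ionotropic co-receptor genes 1 did (33.3%), Ir25a, while the nearest summits to Ir8a and Ir76b were 30.3 kb and 105.9 kb away. Each of these counts is set against the 30.0% of all protein-coding genes.

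Below the IDR threshold, the ranked lists give a value for nearly every receptor gene. The highest ranked signal within the gene or 1 kb was read for each, and 13 of the 179 receptor genes had no ranked summit there in the pooled list (7.26%), against 3.54% of genes of like length and 5.13% of all protein-coding genes. Among the others the median was 23.2 for receptor genes, against 32.1 for genes of like length and 34.2 for all protein-coding genes. By family the medians were 23.0 for Or, 21.2 for Gr and 25 for Ir genes. In the ranked list of replicate 1 the medians were 14.4 for receptor genes, 18.1 for genes of like length and 19.6 for all genes. In that of replicate 2 they were 13.1, 18.7 and 20.1. The median signal value of receptor genes was therefore the lowest of these in both replicates. Genes with no ranked summit are left out of these medians. They were 7.82% of receptor genes and 6.29% of all genes in replicate 1, and 14.5% and 7.75% in replicate 2.

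**Figure D3:**
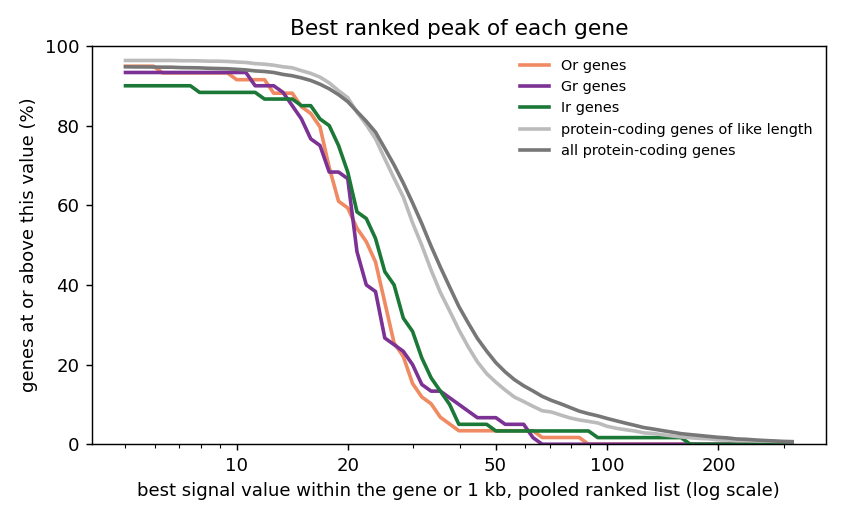
Percentage of genes (y axis) whose best peak in the pooled ranked list, within the gene or 1 kb, reached at least a given signal value (x axis, log scale). The curves of Or, Gr and Ir genes lie left of those of genes of like length and all protein-coding genes through the middle of the range, with medians of 23.0, 21.2 and 25 against 32.1 and 34.2.

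The 21 receptor genes with a summit within 5 kb were served by 25 peaks, of which most were nearest to a gene of another kind. For 18 of the 25 peaks the nearest TSS belonged to a gene that is no receptor, and 12 of these summits lay within 500 bp of that TSS. By gene, 6 receptor genes held the nearest TSS of a summit, beside 21 with a summit within 5 kb. Among all protein-coding genes 1832 did, beside 4190 with a summit within 5 kb. A nearer TSS of another gene was therefore common among all genes as well. Counting the TSS of any gene, 14 of the 25 summits (56.0%) lay within 500 bp of one, against 40.3% of all optimal summits. The 25 were picked by their distance from a gene and the others were not, so these shares are not like for like. The signal value of these 18 peaks had a median of 92.2 and reached 437. The other 7 peaks had a receptor TSS nearest, a median signal value of 65.3 and a highest value of 81.2. For comparison, the 2682 optimal peaks had a median of 75.1 and a highest value of 755. All but 2 of the 7 peaks lay below the median of the list.

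The strongest peak near a receptor gene was that upstream of Ir25a, the most widely used ionotropic co-receptor gene (dm6, 2L, 4830846 to 4835300, minus strand). It ranked 27 of 2682, at 2L from 4837771 to 4837957, with a signal value of 437. Its values in the ranked lists were 200.1 in replicate 1 and 235 in replicate 2, both above their IDR threshold. The summit lay 2565 bp from Ir25a but 134 bp from a TSS of tank, in a 5' UTR of that gene. Within 1 kb of Ir25a itself the best value in the pooled ranked list was 29.3, below the 34.2 of the median gene.

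Gr5a, which encodes a trehalose receptor (dm6, X, 5680617 to 5682488, plus strand), had summits 2545 and 1476 bp upstream. Both were in an intron of the neighbouring gene Tre1, which encodes a receptor needed for germ cell migration, and the TSS nearest to both was that of Tre1. The stronger peak, at X from 5678025 to 5678105, had a signal value of 194.9 and ranked 197. It had 108.9 in the ranked list of replicate 1 and 85.6 in that of replicate 2, both past the threshold. The weaker one had 71.5 in the optimal list, with 22.9 in replicate 1 and 50.1 in replicate 2, and passed only in replicate 2.

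Ir68b had a peak of 165.2, ranked 269, with its summit 326 bp beyond the 3' end of the gene and 11 bp from the TSS of yps, which encodes a Y-box RNA-binding protein. The replicates gave it 80.0 and 80.6. Or85f, a receptor for odours of parasitoid wasps, had peaks of 141.2 and 93.2 on either side. Their nearest TSS were those of CG8132 and FER, and both peaks passed in both replicates. Ir48c had a peak of 120.4 in an intron of ths, which encodes a fibroblast growth factor, with 42.6 in replicate 1 and 84.6 in replicate 2. The peak near Ir51b (97.6) lay 108 bp from the TSS of row and had 45.6 in replicate 1 and 46.3 in replicate 2. All of these stood at or inside genes that are no receptors.

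Further peaks were called past the threshold in replicate 2 alone. That of Ir54a (115.02) lay 75 bp from the TSS of Vps50, which takes part in vesicle trafficking. The second peak of Ir68b (113.97) lay 123 bp from that of DEF8. That of Ir31a (91.1) lay 32 bp from the TSS of Ip259, and that of Gr94a (85.6) lay 19 bp from the TSS of the tumour suppressor gene p53. The peak of Ir76a (80.7) was in an intron of SREBP, a regulator of lipid synthesis, 498 bp from its TSS. Those of Or9a (73.1) and Ir87a (72.0) were nearest to Neb-cGP and to the actin gene Act87E. The peak of Gr63a was the weakest of the 25, at 52.0, in the coding sequence of Lamtor4, and passed in neither replicate.

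**Figure D4:**
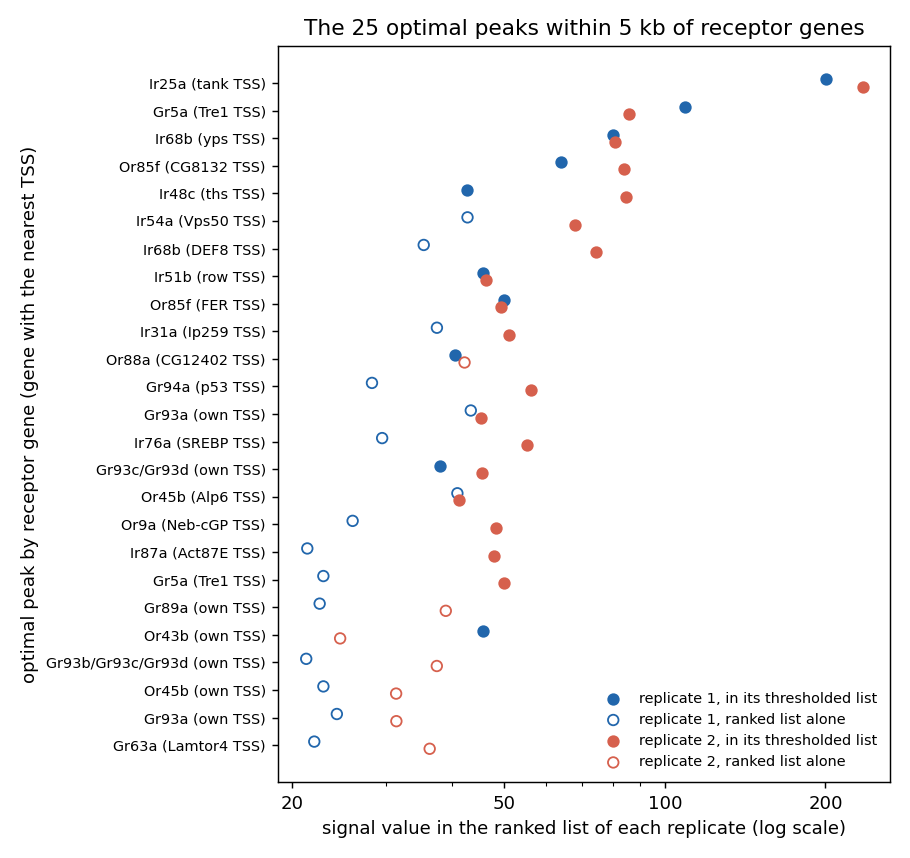
Signal value in the ranked list of each replicate (x axis, log scale) for the 25 optimal peaks within 5 kb of receptor genes, strongest in the pooled list at the top, with the gene holding the nearest TSS in brackets. Filled points passed the IDR threshold of that replicate and open points did not. The peaks with a receptor's own TSS nearest lie in the lower part, at 45.8 or below in both replicates.

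The share of these peaks found in both replicates was close to that of the whole list. Of the 25 peaks 8 (32.0%) overlapped a thresholded peak in both replicates, against 30.8% of the 2682 optimal peaks. A further 10 did so in replicate 2 alone, 2 in replicate 1 alone and 5 in neither. In the ranked lists all 25 had a counterpart in both replicates. Among the 7 peaks with a receptor TSS nearest, 1 passed in both replicates, that upstream of Gr93d.

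Among receptor clusters, that of the Gr93 genes was the only one with optimal summits within 5 kb. Joining windows that overlap left 125 windows, of which 18 (14.4%) held a summit. These windows averaged 14.2 kb and the joined windows of all genes 109.3 kb, so no share of windows is compared between them. With the list of replicate 1 alone 9 windows did. Of the 125 windows, 97 held 1 receptor gene and 17 of them had a summit, while 28 held 2 or more receptor genes and 1 of them did. That window was the one with Gr93a, Gr93b, Gr93c and Gr93d on 3R, with 4 summits. The other clusters of 3 or more receptor genes, 15 in all, had none. Their best pooled ranked values ran from 10.8 to 31.2 over all 15, where a gene had a ranked summit. They included the 6 Gr64 sugar receptor genes, with values of 20.7 to 25.1, the 6 Ir7 genes from Ir7b to Ir7g (11.7 to 28.3) and the cluster of Or65a, Or65b and Or65c (17.0 to 28.8). The highest values of Ir60b, Ir60d and Ir60e and of Ir75a, Ir75b and Ir75c were both 31.2. Those of the 4 Gr93 genes were 30.2 to 60.8, so the lowest of them lay within the range of the other clusters.

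Gr93a encodes a bitter receptor required for the response to caffeine. Its gene (3R, 21832503 to 21834013, plus strand) had 2 summits upstream, 3411 and 4117 bp from its start and between genes. The nearer had a signal value of 81.2, with 43.3 in replicate 1 and 45.2 in replicate 2, past the threshold in replicate 2 alone. The farther had 56.0, with 24.3 and 31.4, and passed in neither. Another summit lay in an intron of Gr93c, 440 bp upstream of Gr93b, at a signal value of 60.8, with 21.3 and 37.4 and a pass in neither replicate. The last lay 2439 bp upstream of Gr93d, at 76.2, with 38.0 and 45.5 and a pass in both. It was also 1596 bp beyond the 3' end of glec, which encodes the midline glial protein Gliolectin. The TSS of glec, 7168 bp away, was farther from this summit than that of Gr93d. A second optimal summit, of signal value 58.6, lay inside glec.

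**Figure D5:**
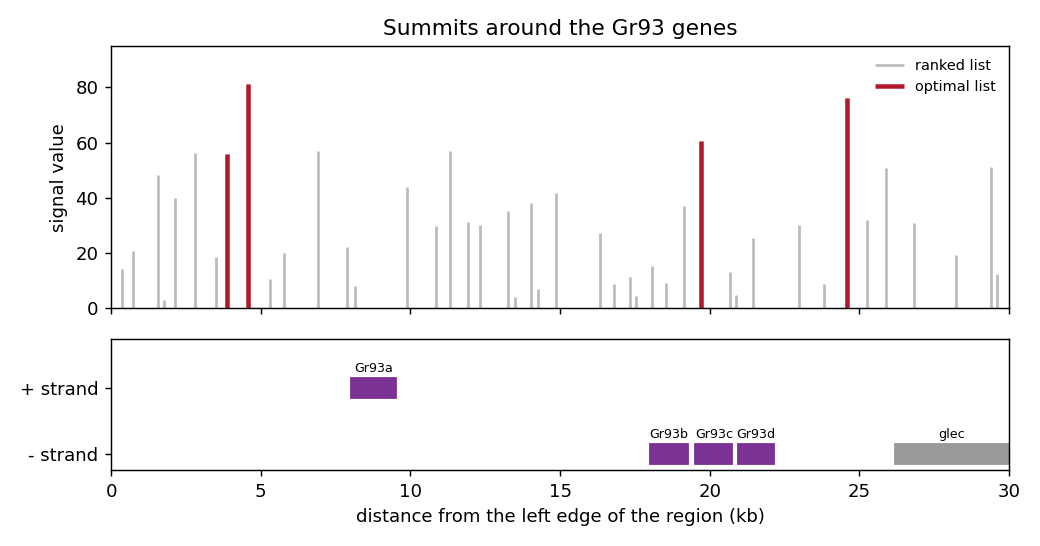
Signal value (y axis, upper panel) of summits in the pooled ranked list and in the optimal list across the region of the Gr93 genes, with distance in kb from the left edge of the region (x axis) and genes by strand in the lower panel. The optimal summits at 81.2 and 56.0 lie left of Gr93a, that at 60.8 in Gr93c, and that at 76.2 between Gr93d and glec.

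Sequences of 101 bp centred on summits are shown for the peaks on 3R with a receptor TSS nearest, since no other start site was nearer to these summits. The bases come from the RefSeq copy of the assembly and are given 5' to 3' on the plus strand. Capitals mark the patterns searched, each on both strands. These were ACGTG, the core of the CNS midline element bound by Sim and its partner Tango, TAATTA (homeodomain), CATATG (E-box) and GAGAG (GAGA factor). The windows were chr3R:21829042-21829142 and chr3R:21828336-21828436 for Gr93a, chr3R:21844155-21844255 for Gr93b, chr3R:21849048-21849148 for Gr93d, and chr3R:16497561-16497661 for Gr89a, whose summit lay 206 bp beyond its 3' end.
Gr93a nearer: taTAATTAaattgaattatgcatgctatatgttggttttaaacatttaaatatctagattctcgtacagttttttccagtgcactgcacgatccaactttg
Gr93a farther: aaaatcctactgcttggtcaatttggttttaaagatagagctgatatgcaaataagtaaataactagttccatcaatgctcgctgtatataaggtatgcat
Gr93b: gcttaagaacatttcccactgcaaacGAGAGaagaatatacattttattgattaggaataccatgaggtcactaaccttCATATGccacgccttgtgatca
Gr93d: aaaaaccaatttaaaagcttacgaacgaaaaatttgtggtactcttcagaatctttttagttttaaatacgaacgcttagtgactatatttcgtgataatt
Gr89a: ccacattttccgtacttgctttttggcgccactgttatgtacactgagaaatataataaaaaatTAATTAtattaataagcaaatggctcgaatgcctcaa

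None of these 5 windows held ACGTG. Or43b and Or45b each had a peak with its own TSS nearest as well, not shown here. That of Or45b held ACGTG within 50 bp of its summit, and that of Or43b did not. The nearer Gr93a window and the Gr89a window held TAATTA, and the Gr93b window held GAGAG and CATATG. Further windows show the core and a strong peak for contrast. The one near Or88a (chr3R:14108751-14108851), which encodes a receptor for fly-derived pheromones, held ACGTG close to its centre. This peak lay 644 bp upstream of Or88a and 480 bp from the TSS of CG12402. Its signal value was 87.4, with 40.5 in replicate 1 and 42.2 in replicate 2, and it passed in replicate 1 alone. The stronger peak of Gr5a (chrX:5678022-5678122) held CATATG at more than a single place and no ACGTG. It was the strongest of the 25 whose window holds no annotated UTR.
Or88a: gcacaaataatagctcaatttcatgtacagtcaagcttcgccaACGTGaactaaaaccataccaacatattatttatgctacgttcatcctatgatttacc
Gr5a: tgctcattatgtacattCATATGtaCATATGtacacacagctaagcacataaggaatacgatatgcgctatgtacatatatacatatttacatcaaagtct

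Over all 25 peaks, 2 (8.0%) held ACGTG within 50 bp of the summit, against 7.27% of the 2682 optimal peaks. They were the peak near Or88a and a peak of signal value 59.8 upstream of Or45b, which passed in neither replicate. TAATTA was present in 3 (12%, against 9.06%), CATATG in 3 (12%, against 4.66%) and GAGAG in 2 (8.0%, against 12.8%). In the thresholded list of each replicate alone, 1 peak near receptor genes held ACGTG. GC content within 50 bp of the summit averaged 34.9% (SD 10.4) in the 25 peaks and 35.9% (SD 11.0) in all optimal peaks.

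By position, 15 of the 25 summits (60%) were between genes, against 37.5% of all optimal summits, and 6 (24.0%) were in introns, against 49.5%. The 25 summits come from windows around mostly short genes, while all optimal summits come from anywhere on the arms. These shares are therefore not drawn from like regions. Coding sequence held 2 of them, in Or43b and Lamtor4. Or43b, an odorant receptor gene of the adult antenna (2R, 7920835 to 7922604, minus strand), was the only receptor gene with a summit in its own coding sequence, 389 bp from its TSS. The peak had a signal value of 65.3. It had 45.8 in replicate 1, past the threshold, and 24.7 in replicate 2, below it. Larval receptor gene Or45b had its own TSS nearest for 1 of its 2 peaks, 2985 bp away, and Alp6 nearest for the other (73.1).

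Neighbouring genes were counted as well, because the TSS nearest to 18 of the 25 summits was that of a gene that is no receptor. A TSS of a gene that is no receptor stood within the 5 kb window of 115 receptor genes, and 17 of these (14.8%) had a summit. Of the 64 receptor genes without such a neighbour 4 had a summit (6.25%), namely Gr93a, Gr93b, Gr93c and Gr93d. Counting a TSS of any other gene, 80.4% of receptor genes had a neighbour, against 90.4% of all protein-coding genes. With a neighbour, 13.9% of receptor genes and 31.5% of all genes had a summit. Without a neighbour, 1 of 35 receptor genes (2.86%), Gr93a, and 15.7% of all genes did. The receptor share was thus the lower one in both classes, though without a neighbour it rests on 1 gene. In the joined windows there were 14.1 summits per Mb for receptor genes, against 21.9 for all genes and 19.5 over the whole arms. With the list of replicate 1 alone there were 5.63 for receptor genes and 8.76 for all genes. With that of replicate 2 alone there were 11.3 and 13.7, a smaller gap in proportion.

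Chromosome arm 3R held 9 of the 21 receptor genes with a summit within 5 kb. It carries 42 receptor genes, of which 21.4% had a summit, against 31.1% of all genes on the arm. The shares were 10.9% of 46 receptor genes on 2R, 8.57% of 35 on 3L, 8.0% of 25 on X and 6.45% of 31 on 2L. All genes had shares of 30.0%, 32.4%, 26.2% and 29.8% on those arms. No receptor gene lies on arm 4. The Gr93 cluster gave 4 of the 9 receptor genes on 3R.

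Other genes of the chemosensory system were read from lists by role. Orco, the shared co-receptor of odorant receptors, had no optimal summit nearer than 45.1 kb. Snmp1, Snmp2 and lush had none within 5 kb. Snmp1 and lush act in pheromone detection. Of 51 odorant-binding protein genes 8 had a summit within 5 kb (15.7%, against 30.0% of all genes), led by Obp99b and Obp99d, which share a peak of 109.1. Obp56e and Obp56f share a peak as well. These 51 genes are short, with a median of 788 bp, so their windows are smaller than those of the typical gene. Of 12 genes for transcription factors of olfactory neurons 2 did (16.7%, against 30.0%), sim itself and Xbp1. These 12 genes are long, with a median of 14041.5 bp, against 2164.5 bp for all protein-coding genes. The gene sim had 4 summits, the strongest in an intron at a signal value of 211.8 (3R, 13068093 to 13068396, rank 161). Xbp1 had a peak of 78.4, 97 bp outside the gene. The others, acj6, pdm3, Eip93F, Fer1, onecut, zf30C, amos, ato, lz and rn, had none. The nearest summits among them were 8.09 kb from Fer1 and 8.22 kb from amos.

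Promoters of the receptor genes, taken from 250 bases before to 50 after the gene start, held ACGTG on either strand in 39 of 179 (21.8%), against 23.2% of all protein-coding genes. The shares were 18.6% of Or, 25% of Gr and 21.7% of Ir promoters. CATATG was present in 7.82% of receptor promoters and 7.81% of all promoters, and GAGAG in 20.1% and 29.7%. TAATTA was present in 80 receptor promoters (44.7%), against 20.4% of all promoters and 21.6% of those of genes of like length. By family it was in 44.1% of Or, 58.3% of Gr and 31.7% of Ir promoters. Promoter GC content averaged 39.5% (SD 5.82) for receptor genes and 39.1% (SD 7.77) for all genes. Duplicated receptor genes can share promoter sequence, so these promoters are not independent of each other.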

How the data were processed

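ChIP-seq peak lists of 2 biological replicates were used as deposited, on assembly dm6 per the labels. Which aligner and caller were used is not given in the sources used here. The authors deposited, per peak, a signal value (the strength given by their peak caller, with no stated unit) and a scaled IDR score. Lists exist for both replicates together (optimal, conservative and ranked) and for each replicate (thresholded and ranked). No read counts are given, so depth and precision are unknown.

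Genes and TSS came from Ensembl release 115 and sequence from RefSeq. No optimal peak ended beyond its arm, and the outermost coding sequence of all 179 receptor genes began with ATG. Summits were counted in windows of 1, 5 and 10 kb either side of each gene, and patterns within 50 bp of each summit. No statistical test was used: with 1 group, shares stand beside those of all 13968 protein-coding genes. Counting was tested on simulated summits. Python 3.11.15, numpy 2.4.6, pandas 2.3.3 and matplotlib 3.10.9 were used.

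The receptor genes and lists were chosen with earlier results of these data known. Named were receptor genes with a summit within 1 kb, the 12 with the strongest peak within 5 kb, Ir8a, Ir25a, Ir76b, Orco, sim, olfactory transcription factor genes with a summit, and genes with the nearest TSS. Other genes were named after their values were seen. Alternatives covered other lists, windows, assignment rules and overlap limits.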

Additional observations from a re-analysis of the deposited data

How the results depend on the processing

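The share of receptor genes stayed below that of all protein-coding genes under every alternative run: 11 of 11 for the 5 kb window and 8 of 8 for 1 kb. The density of summits was below that of all genes in 7 of 7. The counts themselves moved. The list of replicate 1 alone gave 10 receptor genes within 5 kb (5.59%, against 15.0% of all genes). Within 1 kb it gave 3 (1.68%, against 7.86%). The list of replicate 2 alone gave 18 within 5 kb (10.1%, against 21.9%) and 2 within 1 kb (1.12%, against 11.6%). Joined windows with a summit numbered 9 and 16, and 1 peak held ACGTG with either list. Summits per Mb were 5.63 in replicate 1, against 8.76 for all genes, and 11.3 in replicate 2, against 13.7. The conservative list gave 4 receptor genes within 1 kb (2.23%, against 15.2% of all genes). The stronger part of the optimal list, above its median signal, gave 3 within 1 kb (1.68%, against 9.86%). It gave 8.45 summits per Mb, against 10.9 for all genes. The pooled ranked list at a score of 540, chosen after seeing the data, gave 35 receptor genes within 5 kb (19.6%, against 45.0% of all genes). It gave 28 windows and 27.6 summits per Mb, against 41.3 per Mb for all genes. A window of 10 kb gave 33 receptor genes (18.4%, against 42.7%), and the nearest TSS gave 6 (3.35%, against 13.1%). Summits inside the gene alone gave 2 (1.12%, against 8.12% of all genes and 2.74% of genes of like length). Within 1 kb of a TSS there were 4 (2.23%, against 11.7%). ACGTG was found in 1 peak within 25 bp and 4 within 100 bp. All 25 peaks had a counterpart in both ranked lists, against 8 in both thresholded lists. The cause of these shifts was not tested. No paired analysis was possible because the study has 1 group. Unknown depth limits what an absent peak can show.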
